A study of Homo sapiens with 2 samples.

Results

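Genes of matrix glycoproteins, laminins and proteoglycans were compared between UGT8-knockdown and control MDA-MB-231 cells. The set was named by gene symbol and holds 42 genes. A probe set, the group of array probes that reads a transcript, was taken where the platform annotation gave it 1 of these symbols and no other. Over all genes, 45278 of the 49495 probe sets on the arrays had exactly 1 symbol, for 18244 genes. In the set, 41 of the 42 genes had such a probe set, 150 probe sets together. LAMA3, the laminin α3 chain gene, had none, so it has no array values here and enters only the counts of upstream sequences.

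MDA-MB-231 is a human breast carcinoma line of mesenchymal character. The control array held RNA of the parental MDA-MB231 cells, with the genotype label control, and the other array held RNA of a clone with stable knockdown of UGT8, the ceramide galactosyltransferase that makes galactosylceramide. Per the labels, both cultures grew in DMEM with 5.6 mmol/L glucose and were harvested 48 h after passage, with 6 ug of total RNA labelled for each. How UGT8 was knocked down, and whether a vector control existed, is not given in the sources used here. Each group holds 1 array, so no difference has a replicate check, no p-value is given, and the effect of the knockdown cannot be told apart from differences between a clone and its parental line.

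Outside and between cells, matrix glycoproteins such as fibronectin and the thrombospondins carry binding sites for integrins and for other matrix molecules. Laminins are trimers of an α, a β and a γ chain that form the sheet of the basement membrane with nidogens, perlecan and agrin, and fibrillins, fibulins and elastin build elastic fibres. Proteoglycans carry sulfated sugar chains, either in the matrix, as lumican and versican do, or at the cell surface, as syndecans and glypicans do, where they bind growth factors and matrix proteins. Carcinoma cells make many of these proteins themselves, and the set is often followed in studies of invasion.

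RMA values are given on the log2 scale, in which 1 unit is 2-fold, and a difference is the knockdown value minus the control value. Each gene was represented by its brightest probe set, by the mean of the 2 arrays. The gene was counted when that mean reached a floor of 6.64, the median of all non-control probe sets. Probes differ in how strongly they bind, so levels of different genes are not compared. All 3 UGT8 probe sets read lower on the knockdown array, and the brightest went from 8.95 to 6.61, or 19.7% of the control signal. VIM, the vimentin gene of mesenchymal cells, read 13.9 on each array, and the progesterone receptor gene PGR (3.37 and 3.45) was below the mean of the background probe sets (4.73). The list of genes low in this line also named CDH1, the E-cadherin gene, and ERBB2, whose probe sets read past the floor (8.01 and 7.66, and 8.56 and 8.73). All 6 luminal epithelial markers lay past the floor too, with a summed level of 13.7 and 13.6, among them KRT19 (12.6 and 12.2), KRT18 (11.9 and 12.0) and EPCAM (8.34 and 8.97). RNA quality readings differed for ACTB, whose 3' minus 5' difference was 0.49 in control and 0.90 in knockdown cells, and less for GAPDH (0.18 and 0.19). Control RNAs added at hybridisation had a median difference of 0.51, whereas control RNAs with poly-A tails, added before labelling, had one of 0.07. The part of these shifts in the results was not tested. Directions are on the deposited scale unless another is named.

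Of the 41 genes with a probe set, 31 lay past the floor, 22 of them below 0 and 9 above 0. A difference of at least 1.5-fold was found for 8 genes, all lower on the knockdown array. These were SPP1, LUM, LAMA5, EFEMP1, THBS2, AGRN, LAMB2 and GPC4. Of all 10439 genes past the floor, 6.74% were at least 1.5-fold lower and 4.96% at least 1.5-fold higher. No member was at least 1.5-fold higher under any setting tried. Each centring tried lowered the member differences and the 2-fold line is stricter, so those settings could not yield one. SPP1, EFEMP1 and THBS2 were at least 1.5-fold lower under each choice of floor, probe sets and centring. Of the 3 THBS2 probe sets only the brightest passed 1.5-fold, and each of these settings included it. LAMB2 was also at least 1.5-fold lower under each floor and centring, but its 1 probe set leaves no choice of probe sets. A floor can drop a gene but does not change its difference, and each centring tried lowered it. Floors and centring are thus no check on a lower call, and LAMB2 has no other. SPP1, LUM and LAMA5 were at least 2-fold lower, against 1.54% of all genes (0.738% were at least 2-fold higher). The median difference of the 31 members was -0.38, and that of all genes past the floor was 0.03. Values below 0 were found in 45.8% of all genes. With the hybridisation control RNAs set to no difference, 21 members were at least 1.5-fold lower, as were 37.1% of all genes, and the member median was -0.90 against -0.48 for all genes. In RNA of a whole culture, fewer cells that make a transcript and less of it per cell cannot be told apart.

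**Figure D1:**
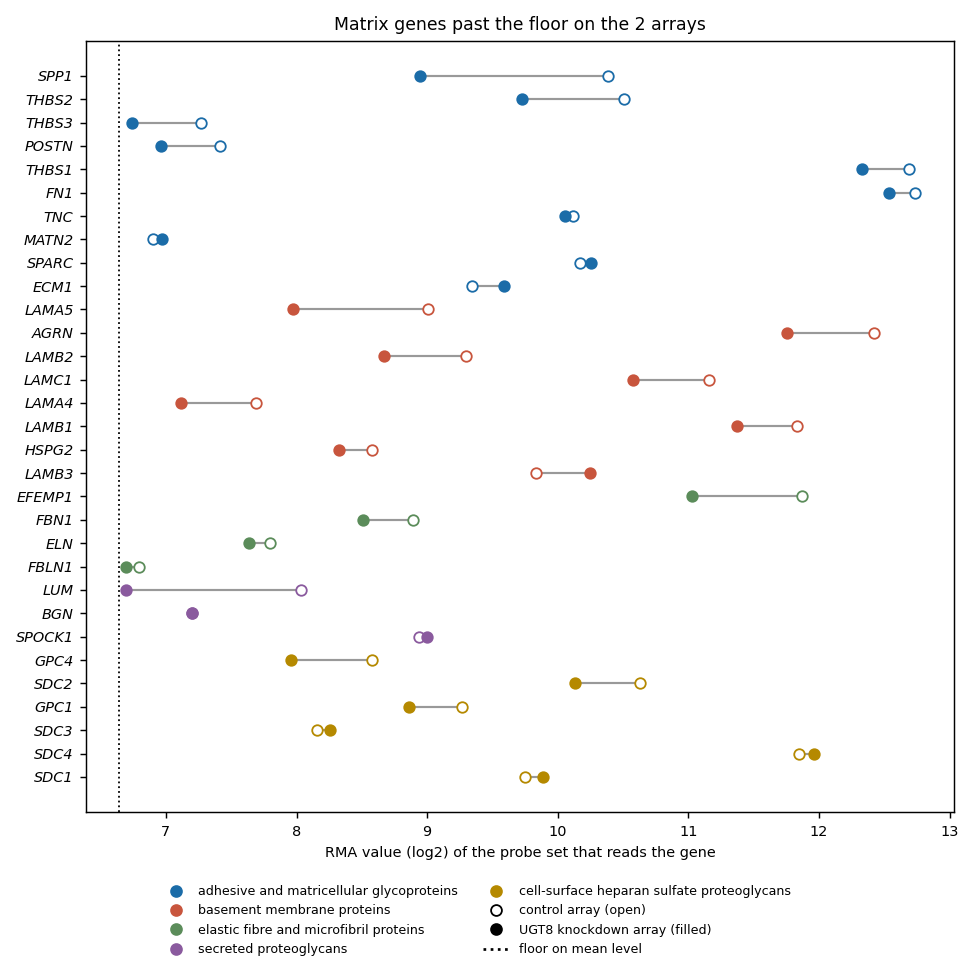
RMA values (log2, horizontal axis) of the 31 matrix genes past the floor, with the control array as an open circle and the UGT8 knockdown array as a filled circle of the probe set that reads each gene. Genes are ordered by difference within 5 matrix classes (colours), 1 array stands behind each circle, and 22 of the genes have the filled circle to the left of the open one.

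**Figure D2:**
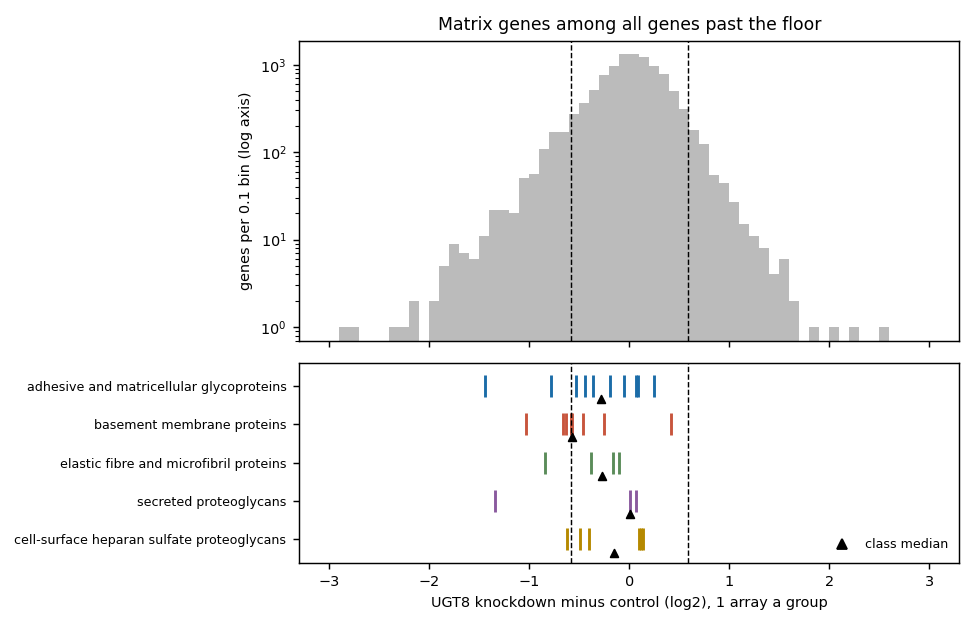
The upper panel counts all 10439 genes past the floor by their difference (log2, bins of 0.1, log vertical axis), and the lower panel marks each of the 31 matrix genes by class, with triangles at the class medians and dashed lines at 1.5-fold. The basement membrane genes have their median at -0.58 and the secreted proteoglycans at 0.01, and all genes together at 0.03.

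Among the adhesive and matricellular glycoproteins, SPP1 and THBS2 were lower on the knockdown array, and the fibronectin, tenascin and SPARC genes were within 1.5-fold. All 10 genes of this class lay past the floor, 7 were below 0, and 2 were at least 1.5-fold lower. Their median difference was -0.28. SPP1 encodes osteopontin, a secreted phosphoprotein that binds integrins and CD44. It read 10.4 in control and 8.95 in knockdown cells, a difference of -1.44 that left 36.8% of the control signal. All 6 SPP1 probe sets were lower, between -1.64 and -1.43, with a mean of -1.49 ± 0.08 (SD over the 6 probe sets, which is no replicate error). Probe sets of 1 gene can share probes, so they are not independent readings. Only 0.402% of the 10439 genes past the floor lay below SPP1.

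Upstream sequences are shown for the genes at least 1.5-fold lower that RefSeq's promoter table (GRCh38.p14) held, which were SPP1, THBS2, LAMA5, LAMB2 and GPC4, so that the sequence before each start can be seen beside its difference. Each run is the 250 bases before the annotated start, 5′ to 3′ along the gene. Capitals mark matches on either strand to the core promoter box TATAAA, the upstream promoter element CCAAT, the GC box GGGCGG, the AP-1 site TGANTCA or the RUNX site ACCACA. No 2 of these matches overlapped. Of the 35116 windows of this length in the table, 10.7% held TATAAA, 32.0% CCAAT, 42.6% GGGCGG, 6.57% TGANTCA and 11.0% ACCACA. The table matched 32 of the 42 genes, of which 25 held a GC box, 8 a CCAAT element, 5 a core promoter box, 4 an AP-1 site and 3 a RUNX site in at least 1 window. A match describes letters only. SPP1 (chr4:87975464-87975713, plus strand) has a GC content of 44.8% and the RUNX letters at bases 142 to 137 before the start. THBS2 (chr6:169253847-169254096, minus strand) has a GC content of 60.0% and the TATAAA letters at bases 29 to 24 before the start.
SPP1: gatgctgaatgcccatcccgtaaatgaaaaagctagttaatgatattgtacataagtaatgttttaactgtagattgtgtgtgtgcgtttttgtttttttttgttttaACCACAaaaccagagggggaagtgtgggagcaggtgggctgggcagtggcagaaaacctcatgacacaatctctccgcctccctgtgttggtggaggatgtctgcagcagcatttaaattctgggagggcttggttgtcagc
THBS2: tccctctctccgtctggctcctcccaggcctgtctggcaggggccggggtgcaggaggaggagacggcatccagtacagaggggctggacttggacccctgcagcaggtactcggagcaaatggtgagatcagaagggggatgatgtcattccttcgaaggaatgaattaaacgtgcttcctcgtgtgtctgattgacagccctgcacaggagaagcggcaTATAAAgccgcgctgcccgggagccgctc

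The 3 thrombospondin genes all read lower, with THBS2 past 1.5-fold. THBS2 encodes thrombospondin 2, a matricellular inhibitor of angiogenesis. It went from 10.5 to 9.72 (-0.79, 1.72-fold lower), and its other probe sets were at -0.55 each. THBS3 went from 7.27 to 6.74 (-0.53), and its probe set below the floor was at -0.21. THBS1, which encodes thrombospondin 1, an activator of latent TGF-beta, was within 1.5-fold by its brightest probe set (12.7 and 12.3, -0.36), but its probe sets disagreed. Those past the floor ran from -0.69 to 0.13, and their mean was -0.39 ± 0.38 (SD, 4 probe sets). THBS1 stays below 0 in each setting tried. Single probe sets at -0.69 and -0.65 passed 1.5-fold, but no averaging or choice of probe sets tried counted THBS1 as lower. Centring on the hybridisation controls did (-0.87).

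FN1 encodes fibronectin, a ligand of several integrins. It read 12.7 and 12.5 (-0.20) by its brightest probe set. All 8 FN1 probe sets were below 0, from -0.46 to -0.20, and none reached 1.5-fold. Tenascin C (TNC), a large glycoprotein that modulates adhesion to fibronectin, read 10.1 on each array (-0.06), with its 4 probe sets between -0.19 and -0.01. POSTN, the periostin gene, went from 7.41 to 6.97 (-0.45), and its 5 probe sets, 1 of them past the floor, lay between -0.63 and -0.26. The 1 past the floor is marked for cross-hybridisation. SPARC, a collagen-binding matricellular glycoprotein, read 10.2 and 10.3 (0.08), and averaged over its 8 probe sets it was at -0.13 ± 0.22 (SD over probe sets). A probe set of SPARC at -0.64 stood apart from the other 7, which lay between -0.16 and 0.08. ECM1, extracellular matrix protein 1, was at 0.25 by its brightest probe set (9.34 and 9.59), whereas its other 4 were between -0.15 and -0.07. MATN2, a matrilin of filamentous matrix networks, was at 0.07. Centring on the hybridisation controls turned SPARC, ECM1 and MATN2 below 0, averaging all probe sets turned SPARC and ECM1, and SPARC was also below 0 without probe sets marked for cross-hybridisation.

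Basement membrane genes had a median of -0.58, with 7 of the 8 genes past the floor below 0 and 3 of them at least 1.5-fold lower. The class lists 11 genes, of which LAMA3 had no probe set and the nidogen genes NID1 and NID2 lay below the floor. LAMA5, the laminin α5 chain gene, read 9.01 in control and 7.97 in knockdown cells. Its difference of -1.03 left 48.9% of the control signal. A second LAMA5 probe set read near the background on both arrays (4.30 and 4.46, 0.16). The average with that dim probe set was -0.43, within 1.5-fold, so the call of LAMA5 rests on 1 probe set.

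The other laminin chain genes below 0 lay between -0.63 and -0.46. LAMB1, the β1 chain, went from 11.8 to 11.4 (-0.46), with a further probe set at -0.63. LAMC1, the γ1 chain found in most laminin trimers, went from 11.2 to 10.6 (-0.58, 1.49-fold), and its 4 probe sets past the floor lay between -0.59 and -0.41. LAMB2, the β2 chain, had 1 probe set, which read 9.30 and 8.67 (-0.63, 1.55-fold lower). LAMA4, the α4 chain found in vessel and mesenchymal basement membranes, went from 7.69 to 7.12 (-0.57, 1.49-fold) by its brightest probe set. Its 3 dimmer ones, below the floor, lay between 0.04 and 0.09. LAMC1 and LAMA4 lay just short of the 1.5-fold line and LAMB2 and GPC4 lay just past it, so the count of members does not separate these 4 genes. Products of LAMA5, LAMB1 and LAMC1 assemble into 1 laminin trimer, and all 3 genes were below 0.

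LAMB3 was the laminin chain gene past the floor with a value above 0. Its product, the β3 chain, is part of a laminin that anchors epithelial cells. LAMB3 went from 9.83 to 10.2 (0.42), and 88.7% of all genes counted lay below that value. The other LAMB3 probe set differed by 0.01, and centring on the hybridisation controls turned LAMB3 to -0.10.

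The heparan sulfate proteoglycan genes of the basement membrane were below 0. AGRN encodes agrin, known from the neuromuscular synapse and widely made by epithelial cells. Its brightest probe set read 12.4 and 11.8 (-0.67, 1.59-fold lower) and is named as a possible cross-hybridising one. The other went from 7.35 to 7.03 (-0.32), so AGRN is within 1.5-fold without the first or with both averaged (-0.49). HSPG2, the perlecan gene, read 8.58 and 8.33 (-0.25) by its 1 probe set past the floor, which is also named as possibly cross-hybridising. Its other probe set read near the background on both arrays (4.72 and 4.70, -0.02). The upstream windows of LAMA5 (chr20:62367313-62367562, minus strand) and LAMB2 (chr3:49133051-49133300, minus strand) are shown for comparison, with GC contents of 82.8% and 58.4% against a median of 58.0% over all windows of the table. LAMA5 holds GC-box letters at 5 places, the nearest at bases 33 to 28 before the start, and LAMB2 at 1, at bases 68 to 63.
LAMA5: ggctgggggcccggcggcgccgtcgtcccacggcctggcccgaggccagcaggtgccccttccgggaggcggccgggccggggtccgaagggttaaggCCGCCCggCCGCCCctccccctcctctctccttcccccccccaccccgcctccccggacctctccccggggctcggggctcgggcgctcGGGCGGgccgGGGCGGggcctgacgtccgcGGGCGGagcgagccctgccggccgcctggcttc
LAMB2: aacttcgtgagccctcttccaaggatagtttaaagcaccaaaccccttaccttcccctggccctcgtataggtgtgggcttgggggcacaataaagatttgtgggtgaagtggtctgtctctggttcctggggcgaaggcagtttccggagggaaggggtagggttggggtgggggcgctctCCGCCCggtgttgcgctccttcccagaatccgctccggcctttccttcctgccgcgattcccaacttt

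Elastic fibre and microfibril genes read below 0 where they lay past the floor, with EFEMP1 past 1.5-fold. Past the floor were 4 of the 9 genes, all below 0, with a median of -0.28. EFEMP1 encodes fibulin 3, a secreted glycoprotein of basement membranes and elastic fibres. It went from 11.9 to 11.0 (-0.84, 1.79-fold lower), and its 4 probe sets lay between -0.87 and -0.67, with a mean of -0.79 ± 0.09 (SD over probe sets). FBN1, the fibrillin 1 gene of microfibrils that also hold latent TGF-beta, went from 8.89 to 8.51 (-0.38), and its other probe set past the floor was at -0.57. ELN, the elastin gene, read 7.80 and 7.63 (-0.17), and FBLN1, the fibulin 1 gene, read 6.80 and 6.69 (-0.11). Each of these was read by 1 probe set past the floor, which is marked for cross-hybridisation. Below the floor, further ELN probe sets were at -0.20 and 0.09, and those of FBLN1 ran from -0.36 to 0.24, so both sides of 0 occur. EFEMP1 was thus the gene of this class that reached the 1.5-fold line, and did so in each probe set.

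Secreted proteoglycan genes differed among themselves. LUM encodes lumican, a small leucine-rich proteoglycan that binds collagen fibrils. It read 8.04 in control and 6.69 in knockdown cells (-1.34, 2.53-fold lower), with 39.5% of the control signal left. On the knockdown array LUM was just above the floor. Its 1 probe set is named as possibly cross-hybridising, so no LUM value remains when such probe sets are left out. BGN, the biglycan gene of the same protein family, read 7.20 on each array (0.01). SPOCK1, which encodes the testican proteoglycan of the SPARC family, differed by 0.06. Both were below 0 after centring on either kind of control RNA, and BGN also after centring on the median or by loess and with all its probe sets averaged. DCN, the decorin gene, and VCAN, the versican gene, lay below the floor, so the class median of 0.01 covers 3 of 5 genes.

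LUM is also a marker of fibroblasts. Of the 8 fibroblast markers listed, LUM was the 1 past the floor, and PDGFRA read 4.47 on both arrays, THY1 4.79 and 4.81, and FAP 3.20 and 3.28, all near or below the mean of the background probe sets (4.73). COL1A1 read 6.04 and 6.13 and COL1A2 5.47 and 5.58. PDGFRB differed by -0.75, with a mean below the floor. The summed level of the list, LUM included, was 9.19 (log2) in control and 8.55 in knockdown cells. Of 6 endothelial markers 2 lay past the floor, with a summed level of 9.30 and 8.67, and of 4 leukocyte markers 2 did (9.79 and 9.77). The part of other cell types in these differences was not tested.

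Among the proteoglycans at the cell surface, GPC4, GPC1 and SDC2 read lower, and the other syndecan genes read slightly above 0. Of the 7 genes, 6 lay past the floor, 3 of them below 0 and 3 above, with a median of -0.15. GPC4, a glypican held in the membrane by a lipid anchor, went from 8.58 to 7.96 (-0.62, 1.54-fold lower), and its other probe set past the floor went from 7.91 to 7.62 (-0.29). Averaged over the probe sets past the floor GPC4 was at -0.46, within 1.5-fold. GPC1 read 9.27 and 8.86 (-0.41), with a further probe set at -0.21. SDC2, a transmembrane syndecan of mesenchymal cells, went from 10.6 to 10.1 (-0.50), and its 6 probe sets were all below 0, from -0.62 to -0.08. SDC1, the main epithelial syndecan, read 9.75 and 9.89 (0.14), with its 3 probe sets between 0.13 and 0.18. All 3 are marked for cross-hybridisation, so no SDC1 value remains without such probe sets. SDC4, a syndecan of focal adhesions, read 11.8 and 12.0 (0.12), with its 3 probe sets between 0.12 and 0.19. SDC3 was at 0.10. Centred on the hybridisation controls, SDC1, SDC3 and SDC4 were below 0. The upstream window of GPC4 (chrX:133415490-133415739, minus strand) has a GC content of 76.0% and GC-box letters at 2 places, bases 66 to 61 and 46 to 41 before the start.
GPC4: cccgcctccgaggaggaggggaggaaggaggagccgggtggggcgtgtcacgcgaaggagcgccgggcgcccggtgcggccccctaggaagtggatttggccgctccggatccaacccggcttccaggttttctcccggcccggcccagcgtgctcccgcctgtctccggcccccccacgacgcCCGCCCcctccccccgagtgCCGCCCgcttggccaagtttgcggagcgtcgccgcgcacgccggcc

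**Figure D3:**
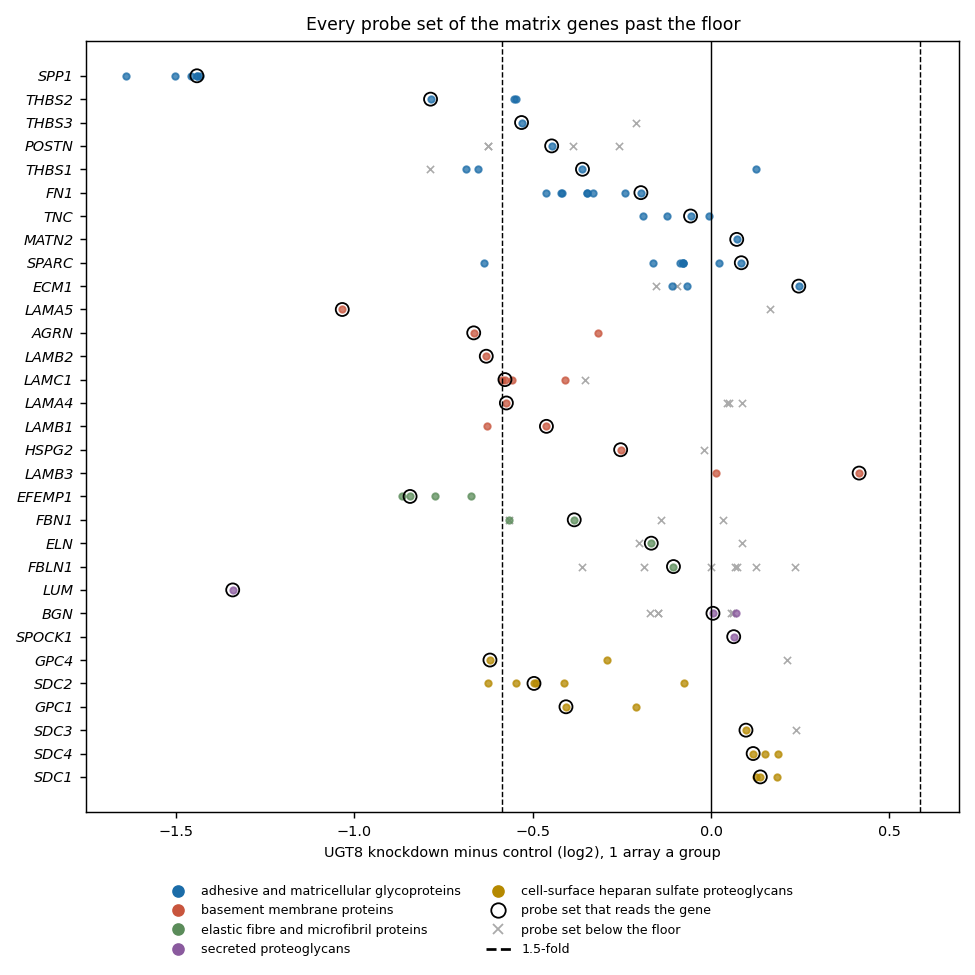
Knockdown minus control (log2, horizontal axis) for every probe set of the 31 matrix genes past the floor, with filled dots for probe sets past the floor, grey crosses for those below it, black rings for the probe set that reads the gene and dashed lines at 1.5-fold. The 6 SPP1 and 4 EFEMP1 probe sets all lie left of the lower line, and those of THBS1 run from -0.79 to 0.13.

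Probe sets of a member mostly lay on the same side of 0, and since they can share probes this is no independent check. Of the 82 member probe sets past the floor, 65 were below 0 and 17 above, and 22 were at least 1.5-fold lower and 0 at least 1.5-fold higher. Of all 22948 probe sets past the floor with 1 symbol, 47.4% were below 0, 7.07% at least 1.5-fold lower and 4.64% at least 1.5-fold higher. Past the floor, 19 members had 2 or more probe sets, which lay below 0 throughout for 12 members, above 0 throughout for 4 and on both sides for 3 (THBS1, SPARC and ECM1). Of the 6067 genes of the arrays read at least 2 times past the floor, 36.1% lay below 0 throughout. The shares of these genes above 0 throughout and on both sides were not computed. The median SD between probe sets of a gene was 0.13 over the members and 0.08 over all such genes.

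Members below the floor all lay within 1.5-fold. There were 10, with readings between 3.37 and 6.74 on either array, 4 of them below 0 and 6 above, and 0 at least 1.5-fold in either direction. EMILIN1, an elastic fibre glycoprotein, read above the floor on the control array (6.74) and below it on the knockdown array (6.47). The fibrillin gene FBN2 (5.97 and 6.32, 0.35), FBLN5 (6.28 and 6.56, 0.29) and VCAN (4.34 and 4.59, 0.25) had the 3 highest values, and DCN (4.60 and 4.11, -0.49) the lowest, with the readings of VCAN and DCN below the mean of the background probe sets on both arrays. The remaining ones were NID1 (5.51 and 5.48), NID2 (4.61 and 4.72), FBLN2 (5.81 and 5.67), MFAP5 (3.37 and 3.50) and GPC6 (4.55 and 4.66). Such dim values do not show whether a transcript was made at different levels.

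A further list of 61 matrix glycoprotein and proteoglycan genes outside the set was read in the same way. Of these, 59 had a probe set and 24 lay past the floor. Of all 10439 genes past the floor, 45.8% were below 0, 6.74% at least 1.5-fold lower and 4.96% at least 1.5-fold higher, with a median of 0.03. In the further list, 17 of the 24 were below 0, 6 at least 1.5-fold lower and 1 at least 1.5-fold higher, with a median of -0.32. The lower ones with the largest differences were LTBP1 (-0.97), which binds latent TGF-beta to the matrix, the netrin gene NTN4 of basement membranes (10.8 and 9.93, -0.85), the matricellular gene CCN1 (-0.66) and IGFBP7 (12.8 and 12.1, -0.65). CCN3, of the same family as CCN1, was the higher one (7.96 and 8.63, 0.67, or 0.15 centred on the hybridisation controls). LAMA1, the laminin α1 chain gene, was below the floor on mean level but read above it on the knockdown array (6.11 and 6.96, 0.85), and is named because of its value.

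**Figure D4:**
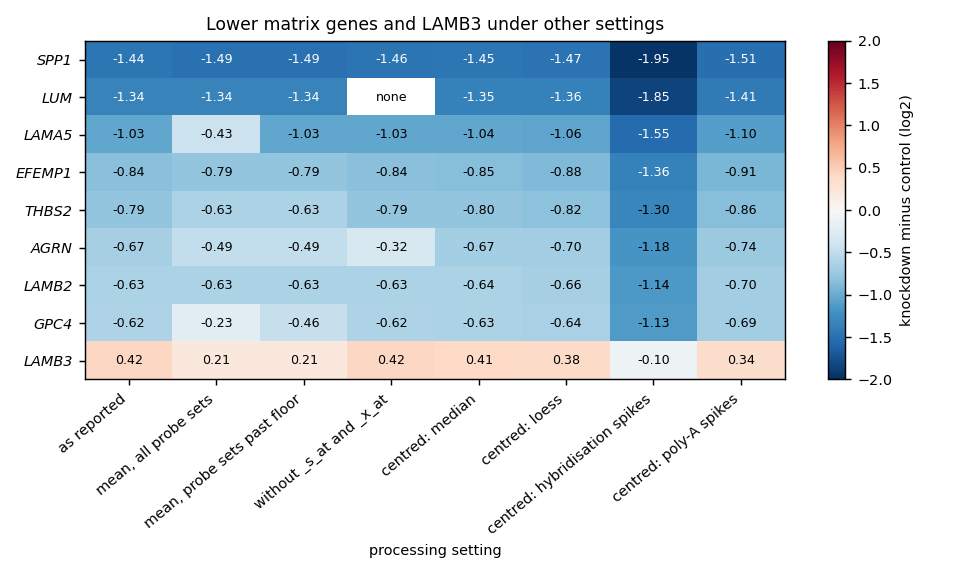
Knockdown minus control (log2, numbers and colour scale) of the 8 matrix genes at least 1.5-fold lower and of LAMB3 (rows), under the reported setting and 7 others (columns), with 1 array a group. SPP1 stays between -1.95 and -1.44, LAMA5 is at -0.43 when its dim probe set is averaged in, and LAMB3 turns to -0.10 when centred on the hybridisation controls.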

How the data were processed

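RNA of 2 cultures was measured on Affymetrix expression arrays, 1 a group. The deposited values are log2 values made with RMA by the authors, per the submitters' processing notes. RMA corrects background, normalizes between arrays and summarises probe sets, so a shift shared by most transcripts is removed. No version or build is given in the sources used here.

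Symbols of the platform annotation were updated through RefSeq's gene table (18201 of 18244 found). Of 49495 probe sets, 102 were controls, and 1333 with several symbols and 2782 with none in the table used were left out. Differences, medians and counts were computed with pandas 2.3.3 in Python 3.11.15, and loess curves (fraction 0.3) with statsmodels 0.14.6. The calling of fold changes was tested on simulated differences planted alike in every probe set of a gene. That checks the computation and not the readings. No test was run across genes, since each group holds 1 array, whose number limits the precision.

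Members, matrix classes, the further gene list and the settings were chosen with earlier results of these data known. Members at least 1.5-fold different were named with both values, others with values or differences, and up to 4 further matrix genes in each direction. LAMA1, the upstream windows and the motifs were chosen after values and sequences had been seen. The alternatives changed the floor, the probe sets used, their averaging, the centring and the fold threshold.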

Additional observations from a re-analysis of the deposited data

How the results depend on the processing

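No paired analysis was possible because each group holds 1 array. The count of 8 members at least 1.5-fold lower became 5 under a 75th-percentile floor, 5 with all probe sets of a gene averaged, 3 at 2-fold and 21 when centred on the hybridisation controls. It stayed within 1.5 times of 8 in the other settings, and the count of higher members was 0 in all settings. Centring and the 2-fold line could not have raised that count, since each centring lowered the member differences. The member median of -0.38 was -0.20 with no floor, -0.27 under a 25th-percentile floor and -0.90 when centred on the hybridisation controls. That centring gave class medians of -0.79 for adhesive glycoproteins, -1.09 for basement membrane, -0.79 for elastic fibre, -0.51 for secreted and -0.67 for cell-surface genes. Averaging the probe sets past the floor gave -0.37 for adhesive glycoproteins, and averaging all gave -0.46 for basement membrane and -0.042 for cell-surface genes. The elastic fibre median was -0.14 with no floor, -0.15 under the 25th-percentile floor, and -0.61 both under the 75th-percentile one and without probe sets marked for cross-hybridisation. The cell-surface median was 0.10 with no floor and -0.41 without the marked probe sets. Leaving those out kept 23 of 31 members. The ones lost were LUM, POSTN, MATN2, HSPG2, FBLN1, ELN, BGN and SDC1. Centring on the median, by loess and on poly-A controls changed no median by more than the spread between probe sets. Fewer genes enter under a higher floor or without marked probe sets, and more under a lower floor or none. Leaving out marked probe sets also changed which probe set read some genes, such as FN1 and AGRN. Centring on the hybridisation controls subtracted 0.51 from every gene, and the 2-fold line is stricter. For the averaged settings the cause was not tested. Signal near background limits the 10 members below the floor.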

Other observations

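Some matrix genes gave different readings by probe set, which the choice of the brightest one hides. For THBS1, the probe sets read 12.7 and 12.3 (-0.36), 12.5 and 11.8 (-0.69), 12.3 and 11.6 (-0.65), and 9.69 and 9.81 (0.13) on the control and knockdown arrays, and the 1 below the floor read 6.56 and 5.77 (-0.79). For SPARC, 7 probe sets lay between -0.16 and 0.08 and the remaining one went from 8.28 to 7.64 (-0.64). For SDC2, 5 of 6 lay between -0.62 and -0.41 and the remaining one went from 8.33 to 8.25 (-0.08). For LAMB3, one went from 9.83 to 10.2 (0.42) and the other read 7.41 and 7.42 (0.01). Which transcripts or exons these probe sets cover was not examined here.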
